A study of Mus musculus with 4 samples.

Results

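The small leucine-rich proteoglycan genes were taken as 10 named members, Bgn, Dcn, Aspn, Lum, Fmod, Kera, Prelp, Omd, Epyc and Ogn, out of 22367 protein-coding genes annotated on the mouse genome mm9. A Runx2 peak was given to a member when it overlapped, by at least 1 bp, the gene body widened by 20 kb on each side, here called the window. The members held 14 of the 25457 peaks of day 0, 32 of the 60596 peaks of day 9 and 31 of the 40330 peaks of day 28. Merged across days by overlap, these peaks formed 44 regions out of 67703 in the genome.

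The peaks came from ChIP-Seq, the sequencing of DNA recovered with an antibody against a chromatin protein, here the M70 antibody against Runx2. The cells were MC3T3-E1 subclone 4, a single subclone of a preosteoblast line from mouse calvaria (strain C57BL/6, passages 28 to 31). They were sampled as proliferating preosteoblasts at day 0, as matrix-depositing osteoblasts at day 9 and as mineralizing osteoblasts at day 28, with differentiation induced by ascorbic acid and beta-glycerophosphate. For each day, reads of 2 replicate libraries were pooled before peak calling, and 1 list of peaks was used. The input DNA, the control without antibody, came from matrix-depositing cells alone and served every day. No difference between days could therefore be tested against a replicate error, the lists carried no read depth, and expression markers of the labelled cell stages could not be examined. Counts and shares of the 3 days are set side by side as descriptions of 3 lists, and where 3 values follow each other with no day named they stand for days 0, 9 and 28 in that order. The day 0 list was the shortest and the day 9 list the longest, although the day 0 libraries had the most raw reads of the 3 days and those of day 28 the fewest, by the supplement of the study. The part that depth had in the length of the lists was not tested.

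Small leucine-rich proteoglycans are secreted proteins built around a row of leucine-rich repeats, and many carry glycosaminoglycan chains. They bind collagen fibrils, set fibril diameter and spacing, and hold growth factors such as TGF-beta and BMPs in the matrix. In bone, biglycan and decorin are among the abundant proteoglycans of the osteoid, the unmineralized matrix that osteoblasts lay down. Runx2 is the transcription factor required for osteoblast formation, and the Runt domain binds a short core sequence written TGTGGT, or ACCACA on the other strand.

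The 10 members lay at 4 loci. Prelp and Fmod stood on chromosome 1 in divergent orientation, 116 kb apart with no other annotated gene between them. Dcn, Lum, Kera and Epyc followed each other on chromosome 10, and Aspn, Omd and Ogn on chromosome 13. Bgn stood alone on the X chromosome. The windows of Omd and Aspn overlapped by 24.8 kb and those of Omd and Ogn by 24.5 kb, so some peaks were counted for both genes. The 3 genes on chromosome 13 also lay inside Cenpp, a centromere protein gene on the opposite strand, and Ecm2 lay partly inside the window of Aspn. Other annotated genes reaching into a window were Optc and Gm15851 for Prelp, Atp2b3 for Bgn, Gm10754 and 4921510H08Rik for Epyc, and the microRNA gene AC160978.1 for Ogn.

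The DNA under the highest-scoring day 9 peak of each member is shown first, because the description of the loci below turns on these regions. Each stretch was read from the plus strand of mm9 and centred on the TGTGGT nearest to the centre of the peak, or on that centre when the peak held none. Capitals mark TGTGGT or ACCACA. The last pair are the Ogn stretch, from the day 0 peak since the gene had none at day 9, and the 100 bases before the annotated start of Lum, where a peak appeared at day 28.
Prelp, upstream, chr1:135838457-135838576: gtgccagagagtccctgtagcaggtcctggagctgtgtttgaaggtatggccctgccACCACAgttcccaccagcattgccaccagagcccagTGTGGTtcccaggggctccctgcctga
Fmod, intron 1, chr1:135936115-135936234: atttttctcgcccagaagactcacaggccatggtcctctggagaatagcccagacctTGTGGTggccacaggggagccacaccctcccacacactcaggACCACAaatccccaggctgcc
Bgn, upstream, chrX:70722060-70722179: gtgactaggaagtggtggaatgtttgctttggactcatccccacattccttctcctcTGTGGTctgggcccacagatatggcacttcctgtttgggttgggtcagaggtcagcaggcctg
Dcn, intron 7, chr10:96979214-96979333: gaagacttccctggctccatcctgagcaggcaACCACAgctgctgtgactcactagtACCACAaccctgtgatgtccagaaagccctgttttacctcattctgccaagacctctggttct
Lum, upstream, chr10:97009972-97010091: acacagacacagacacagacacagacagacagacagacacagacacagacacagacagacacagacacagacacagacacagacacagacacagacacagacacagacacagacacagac
Epyc, downstream, chr10:97149917-97150036: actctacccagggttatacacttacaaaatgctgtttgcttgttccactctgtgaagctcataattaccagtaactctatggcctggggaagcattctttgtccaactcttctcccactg
Omd, intron 1, also in the window of Aspn, chr13:49679796-49679915: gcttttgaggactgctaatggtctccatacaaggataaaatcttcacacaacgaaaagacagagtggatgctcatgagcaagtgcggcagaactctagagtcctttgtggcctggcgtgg
Ogn, before the start, chr13:49703262-49703381: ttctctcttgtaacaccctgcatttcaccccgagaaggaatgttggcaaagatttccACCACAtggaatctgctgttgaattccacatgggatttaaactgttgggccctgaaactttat
Lum, before the start, chr10:97028035-97028134: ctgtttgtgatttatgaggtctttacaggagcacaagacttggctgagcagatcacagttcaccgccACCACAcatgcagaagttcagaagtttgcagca

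The day 9 peaks of Fmod, Prelp, Bgn and Dcn, which carried the highest scores, held 3, 3, 1 and 2 matches to TGTGGT on either strand. The nearest match lay 31 bp from the peak centre at Fmod, 117 bp at Prelp, 43 bp at Bgn and 20 bp at Dcn. The highest day 9 peaks of Lum, Omd and Epyc held none. The Lum stretch was a simple tandem repeat, and how uniquely reads could be placed there was not tested.

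At least 1 peak lay in the window of 8 of the 10 members at day 0, of 8 at day 9 and of 9 at day 28. The background over all protein-coding genes was 65.0%, 77.0% and 71.2% on these days. The share of members with a peak stood close to it at day 9 and above it at days 0 and 28. With 10 members, this was not tested. The median member had 1.50, 1 and 3 peaks on days 0, 9 and 28. The median gene of the whole annotation had 1, 2 and 2. The lowest member had 0 peaks on each day, and the highest had 3, 15 and 8. The members thus differed most among themselves at day 9, as the plot of peaks per gene by day shows.

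**Figure D1:**
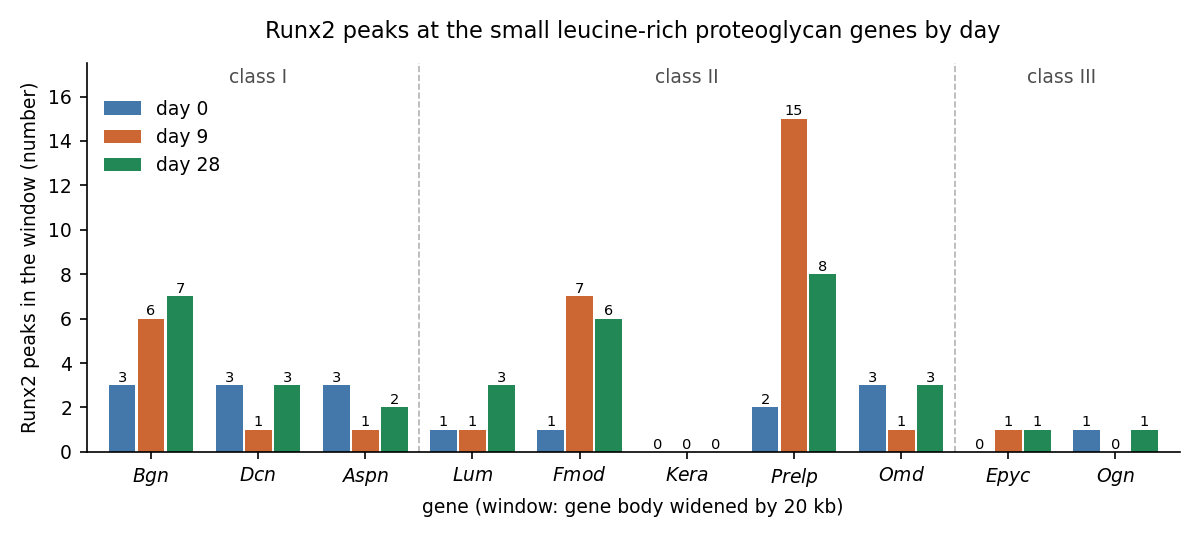
Number of Runx2 peaks in the window of each small leucine-rich proteoglycan gene at day 0, day 9 and day 28, grouped by class of the family. Each bar is 1 count from 1 pooled list, with no error. Prelp reached 15 peaks at day 9, while Dcn, Aspn, Omd and Ogn had fewer at day 9 than at days 0 and 28.

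Among the class I genes, Bgn encodes biglycan, a proteoglycan with a pair of chondroitin or dermatan sulfate chains that promotes osteoblast differentiation and matrix mineralization. The window of Bgn held 3, 6 and 7 peaks on days 0, 9 and 28, which fell into 8 regions. The region with the highest scores was chrX:70721769-70722470, centred 6.86 kb before the start, with scores of 1258, 1497 and 1419 on days 0, 9 and 28. The score is −10 times the log10 of the peak caller's p-value. It grows with read depth, so within each list it was also ranked as a percentile. For this Bgn region the percentiles were 93.9, 86.9 and 85.2, and TGTGGT lay within 50 bp of the peak centre in all 3 lists. A region in intron 1, chrX:70732109-70732864, centred 3.50 kb after the start, scored 285, 1084 and 814. The percentiles were 52.1, 81.9 and 73.5, so it stood near the middle of the day 0 list and in the upper part of the later lists. The start of Bgn itself had a peak at day 28 alone, and its score of 100.19 was just above the lowest deposited score. No peak in the Bgn window lay beyond the intron 1 region toward Atp2b3. At the other end, the region 17.9 kb before the start, present on all days, was nearer to the start of Haus7 than to that of Bgn.

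Dcn encodes decorin, which coats collagen fibrils and limits their lateral fusion. There were 3, 1 and 3 peaks in the Dcn window on days 0, 9 and 28. The day 9 peak lay near the 3′ end of the gene, in intron 7, within chr10:96978967-96979585 and 34.3 kb after the start. This region had a peak in each list, with scores of 288, 1635 and 553. The percentiles were 52.7, 88.2 and 64.2, so the region ranked highest in the list in which the window held fewest peaks. It contained 4 matches to TGTGGT. Apart from a downstream peak at day 0, the other Dcn peaks scored below the intron 7 peak of their list. A region downstream of the gene, chr10:96998045-96999008, scored 324 at day 0 and 132 at day 28, a second downstream region scored 135 at day 28, and a peak 9.86 kb before the start scored 104 at day 0. No peak touched the Dcn start on any day.

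Aspn encodes asporin, an aspartate-rich member that lacks glycosaminoglycan chains and binds collagen and calcium. On days 0, 9 and 28 the Aspn window held 3, 1 and 2 peaks. A single region lay in the gene itself, a day 0 peak in intron 1, 1.41 kb after the start, chr13:49640901-49641551, with a score of 288 and no TGTGGT. The other Aspn peaks lay before the start of Omd or in its intron 1 and were counted for both genes.

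Among the class II genes, Fmod encodes fibromodulin, a keratan sulfate proteoglycan of tendon, cartilage and bone that guides collagen cross-linking. For Fmod the counts were 1, 7 and 6 peaks on days 0, 9 and 28. The day 0 peak lay in intron 1, in the region chr1:135934733-135937142, with a score of 2224. That region scored 3100 at days 9 and 28, a value that 2699 peaks shared at day 9 and 1468 at day 28, so scores at this value cannot be ranked among themselves. The percentile of the Fmod region was 98.1, 97.4 and 97.8. At day 9 the region was split into 3 peaks. The other strong Fmod region, chr1:135957163-135958252, lay past the end of the gene, 23.6 kb after the start. The nearest protein-coding start to its peaks was that of Btg2, 17994 bp away at day 9 and 17990 bp at day 28. This region had no peak at day 0, and its scores at days 9 and 28 were 1600 and 809. The start of Fmod had no peak at day 0, and peaks with scores of 157 and 220 at days 9 and 28. The 3 remaining day 28 peaks, 2 in intron 2 and 1 just past the 3′ end, scored between 102 and 151.

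Prelp encodes PRELP, an arginine- and proline-rich member that links basement membranes to collagen. Prelp had 2, 15 and 8 peaks on days 0, 9 and 28, and 2.82% of protein-coding genes had as many or more at day 9. The 15 day 9 peaks spread over the gene body, both flanks and the start, with scores of 123 to 727 apart from the highest. That highest region, chr1:135837054-135839522, centred 20.3 kb before the start, scored 3100 in all 3 lists and stood at percentiles 99.5, 97.4 and 97.8. It straddled the edge of the window, and its centre lay outside. The other region present on every day lay on the far side of the gene, inside Optc, 20.3 kb after the Prelp start. Its scores were 524, 285 and 330. No peak covered the start of Prelp at day 0, and the peaks there scored 243 and 122 at days 9 and 28. Of the peaks in the member windows, 1 of day 0, 9 of day 9 and 5 of day 28 had the Prelp start as nearest protein-coding start. Peaks outside the windows were not counted in this way.

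The whole 116 kb interval between Prelp and Fmod contained 8, 24 and 16 peaks on days 0, 9 and 28. It took in the facing flanks of both windows, so some of these peaks were already counted above. Others lay outside both windows. A region about 38.3 kb before the Prelp start scored 1003, 3100 and 2195. Its neighbour 40.5 kb before the start scored 942, 2967 and 1264. Both stood at or above the percentile of 83.0 in each list.

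**Figure D2:**
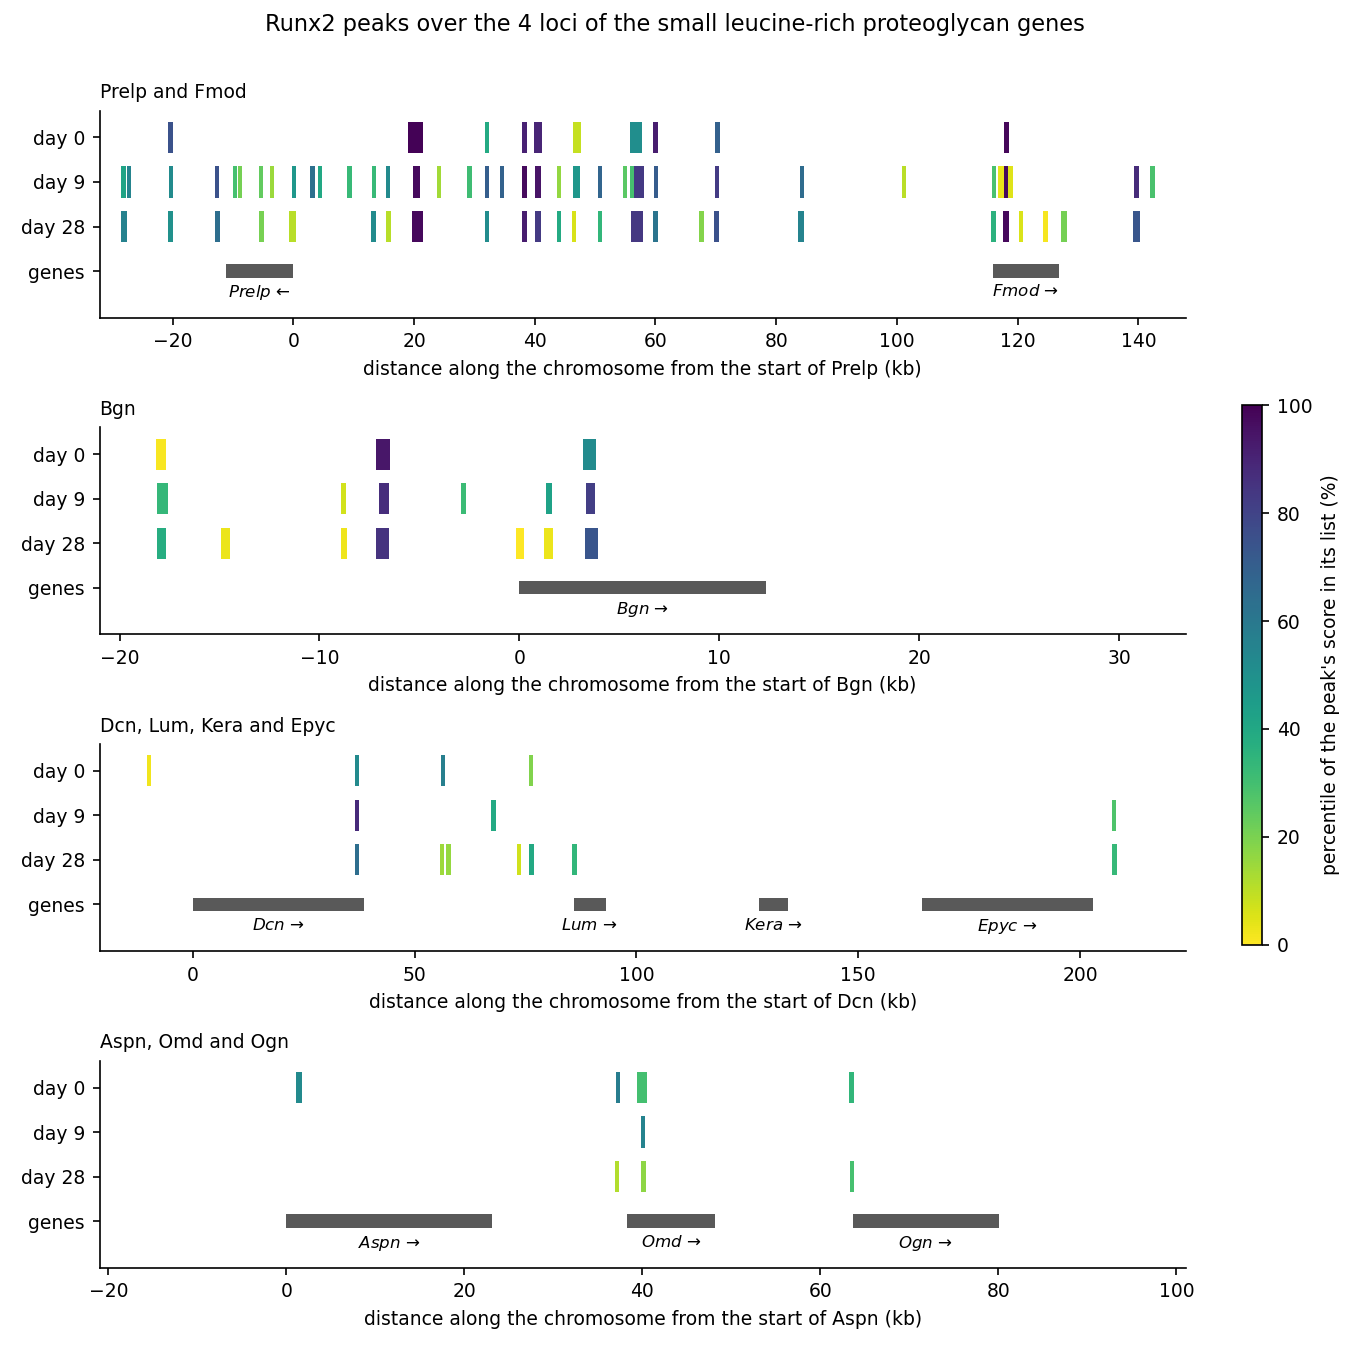
Positions of Runx2 peaks at day 0, day 9 and day 28 over the 4 loci, with the gene bodies as grey bars and arrows for the direction of transcription. The horizontal axis is the distance along the chromosome in kb from the start of the named gene, darker colour is a higher score percentile within the list, and narrow peaks are drawn at a minimum width. The locus of Prelp and Fmod held 10, 37 and 25 peaks on the 3 days, while the locus of Aspn, Omd and Ogn held 4, 1 and 3.

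Omd encodes osteomodulin, also called osteoadherin, a keratan sulfate proteoglycan found mainly in mineralized tissues. As for Dcn, the counts were 3, 1 and 3 peaks on days 0, 9 and 28. The region in intron 1, chr13:49679221-49680325, was present on every day with scores of 175, 314 and 138 and percentiles of 29.8, 55.3 and 16.9. A region about 1.06 kb before the start, chr13:49676830-49677327, scored 332 at day 0 and 124 at day 28 and was absent from the day 9 list. Like Dcn, Omd kept 1 peak at day 9, and it was the one that ranked higher there than on the other days.

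Lum encodes lumican, a keratan sulfate proteoglycan that spaces collagen fibrils in cornea and connective tissue. Lum had 1, 1 and 3 peaks on days 0, 9 and 28. The day 0 peak, 9.57 kb before the start, scored 141 and returned at day 28 with 244. The day 9 peak, at chr10:97009794-97010270 on the tandem repeat shown above, scored 199 and overlapped no peak of the other lists. The Lum start, chr10:97027995-97028658, had a peak at day 28 alone, with a score of 210 and 2 matches to TGTGGT, of which 1 lay in the printed 100 bases. Kera encodes keratocan, a proteoglycan of the corneal stroma, and its window held no peak in any list. The nearest peak to the Kera start was 51.3, 59.8 and 41.5 kb away on days 0, 9 and 28. The window of Kera matched 4724 other protein-coding genes with no peak on any day.

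Among the class III genes, Epyc encodes epiphycan, a proteoglycan of growth plate cartilage. No peak lay in its window at day 0, and days 9 and 28 had 1 each, both in the region chr10:97149763-97150321, past the end of the gene and close to Gm10754. The scores were 154 and 204. Ogn encodes osteoglycin, also called mimecan, a matrix protein found in bone and connective tissue. It had 1 peak at day 0, none at day 9 and again 1 at day 28. Both peaks covered the start, in the region chr13:49703053-49703600, and scored 193 at day 0 and 185 at day 28. The match to ACCACA printed above lay 4 bp from the centre of the day 0 peak. Together with Omd and Aspn, Ogn stood at a locus with 4, 1 and 3 peaks on days 0, 9 and 28.

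A peak overlapping the 1000 bp before to 150 bp after a start site was found for 2 members at day 0, Ogn and Omd, for 2 at day 9, Fmod and Prelp, and for 5 at day 28, Bgn, Lum, Fmod, Ogn and Prelp. Over all protein-coding genes the background was 42.7%, 51.6% and 50.1%. At day 28 the count of 5 in 10 stood at the background share, and at days 0 and 9 the count of 2 in 10 stood below it. These differences were not tested. Start peaks of the members had score percentiles between 0.108 and 58.1. By the centre of the peak, 5 of 14, 12 of 32 and 11 of 31 member peaks lay within a member's gene body.

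Dcn, Ogn, Omd and Aspn each had fewer peaks at day 9 than at day 0, 4 of 10 members, against a background of 3.98% of protein-coding genes. The same 4 had fewer at day 9 than at both other days, against 1.45%. Bgn, Fmod, Prelp and Epyc had more at day 9 than at day 0, 4 of 10 members, against 60.3%. These counts were chosen for description after the values were seen. The 4 genes stood at 2 loci. Omd shared peaks with Aspn and with Ogn, whereas Dcn, on another chromosome, shared none with these, and each of the differences rested on 1 or 2 peaks. The peaks present at day 0 or 28 in regions without a day 9 peak at these 4 genes scored between 104 and 332. With p-value 1e-20 as the limit for a peak, 2 members had fewer peaks at day 9 than at day 0 (3.32% of genes). With 1e-50 there were 0 (1.60% of genes). With lists of equal length, each holding the 25457 highest scores, there were 6 (20.9% of genes). In the gene body alone there were 2, Ogn and Aspn (3.14% of genes), and with the gene body widened by 10 kb or 50 kb there were 5, with Lum added (3.89% and 4.01% of genes). These alternatives set day 9 against day 0 alone. When the peaks in the windows were counted by nearest protein-coding start, Dcn had 2, 1 and 1 peaks and Aspn 1, 0 and 0. In that count neither had fewer at day 9 than at day 28. It left out peaks outside the windows, such as a day 28 peak centred 22.3 kb before the Dcn start. In the same count Ogn had 1, 0 and 1 peaks, Omd 2, 1 and 2, and Lum 2, 1 and 5. The share over all genes was not counted in this way.

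**Figure D3:**
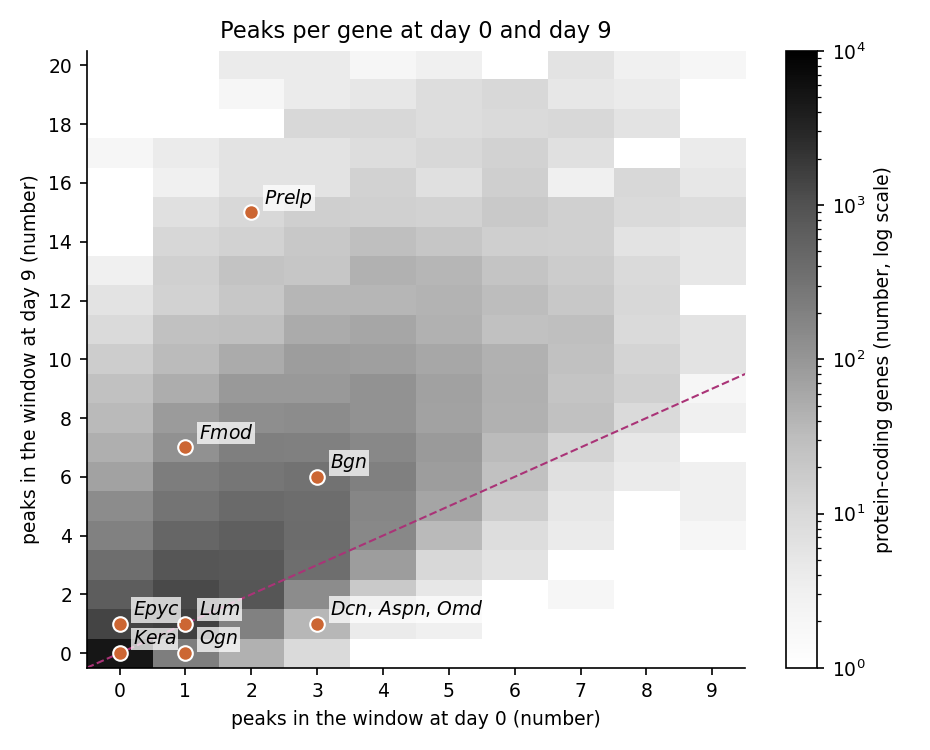
Peaks per gene window at day 0 (horizontal) and day 9 (vertical), with grey shading for the number of protein-coding genes on a log scale and orange points for the small leucine-rich proteoglycan genes. The dashed line marks equal counts, genes with over 9 peaks at day 0 or over 20 at day 9 fall outside the axes, and Dcn, Aspn, Omd and Ogn lie below the line.

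Of the 44 member regions, 8 had a peak on all 3 days, 11 at days 9 and 28, 11 at day 9 alone, 8 at day 28 alone, 4 at days 0 and 28, 2 at day 0 alone and none at days 0 and 9 alone. Over the 67703 regions of the genome the shares were 27.4% for all 3 days, 21.1% for days 9 and 28, 34.5% for day 9 alone, 7.59% for day 28 alone, 2.06% for days 0 and 28, 5.60% for day 0 alone and 1.69% for days 0 and 9. In the members the corresponding shares were 18.2%, 25%, 25%, 18.2%, 9.09%, 4.55% and 0%. The 4 regions seen at days 0 and 28 but not at day 9 were those downstream of Dcn, 9.56 kb before Lum, before Omd and at the Ogn start.

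The 8 regions with a peak on all 3 days were near Prelp (2 regions), Fmod, Bgn (3 regions), Dcn and Omd, as the plot of their percentiles shows. Those of Prelp upstream, Fmod and Bgn at 6.86 kb upstream stayed at percentiles of 85.2 or above. Those of Dcn, Omd and Bgn in intron 1 ranked higher at day 9 than at days 0 and 28. Of these 8 regions, 7 held TGTGGT somewhere, compared with 3 of the 11 regions of day 9 alone. The regions differed in length, and this was not corrected for.

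**Figure D4:**
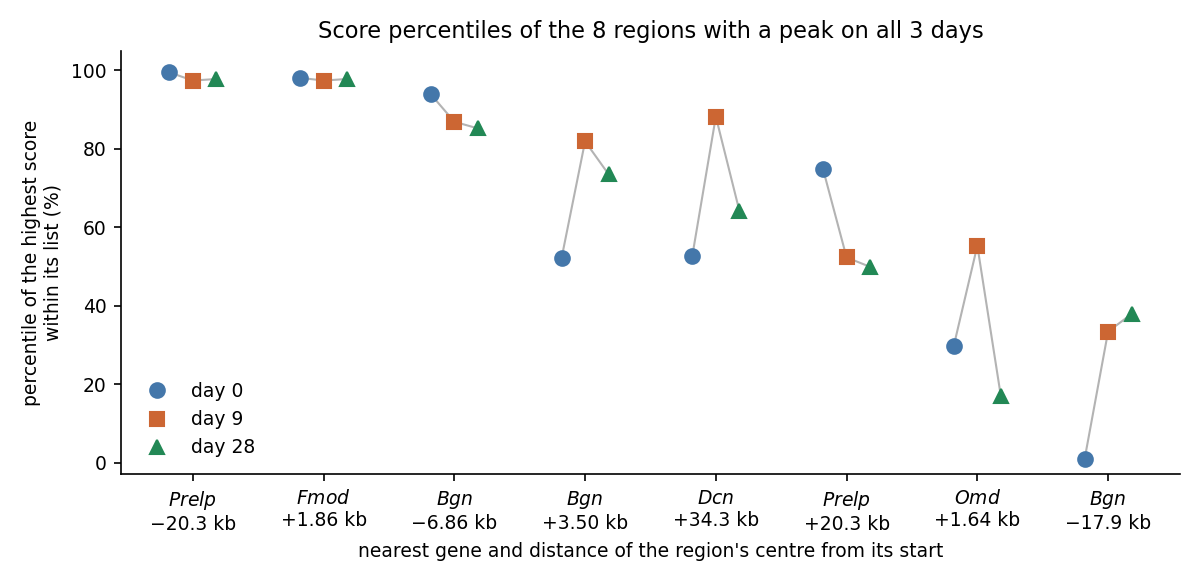
Percentile within its list of the highest score in each of the 8 regions with a peak on every day, labelled by nearest gene and distance of the region centre from its start. The regions upstream of Prelp and in intron 1 of Fmod stayed above 97 in each list, while the Dcn region went from 52.7 at day 0 to 88.2 at day 9 and 64.2 at day 28.

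The member peaks ranked somewhat lower than the lists as a whole at the later days, with median percentiles of 52.7, 39.8 and 29.6 on days 0, 9 and 28. Their median width was 724, 576 and 656 bp, beside 917, 554 and 763 bp for all peaks. TGTGGT within 50 bp of the centre was found in 5 of 14 member peaks at day 0 (35.7%, 95% exact Clopper-Pearson interval 12.8 to 64.9), in 5 of 32 at day 9 (15.6%, 5.28 to 32.8) and in 6 of 31 at day 28 (19.4%, 7.45 to 37.5). The shares over all peaks were 16.0%, 25.3% and 20.9%, and each lay inside the members' interval, which covers counting error alone. Anywhere in the peak, TGTGGT was found in 78.6%, 43.8% and 51.6% of member peaks and in 61.4%, 58.7% and 61.6% of all peaks. In the 300-base promoters that RefSeq gives on GRCm38.p6, 8 of the 10 members matched an entry. Ogn and 1 of the 2 Epyc promoters held TGTGGT on either strand, as did 16.8% of all 32817 promoters.

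Relatives of the family outside the 10 members, a list of 9 genes including Optc, Ecm2, Podn and Chad, had at least 1 peak in 7, 9 and 9 windows, with medians of 1, 4 and 3 peaks at days 0, 9 and 28. Optc, which encodes opticin of the eye and shares peaks with Prelp, held 1, 12 and 5 peaks. The list of 20 enzymes that build chondroitin and dermatan sulfate chains had medians of 2, 5 and 4 peaks, and 17, 18 and 17 of them had a peak at the start. Chst11, a chondroitin 4-sulfotransferase, held 4, 25 and 12 peaks. The 11 fibrillar collagen genes had medians of 5, 15 and 10, with Col1a1 at 8, 22 and 13. Longer genes have longer windows, and the counts of these lists were not scaled by window length. The 5 genes of the SIBLING family of mineral-binding phosphoproteins had medians of 1, 4 and 3, with Ibsp, bone sialoprotein, at 1, 5 and 6. Not every listed gene had more peaks at day 9 than at day 0. Dmp1 of the SIBLING genes held 1, 0 and 1 peaks, the same counts as Ogn. Col11a1 held 1, 1 and 3, the same as Lum, and Col3a1 held 1, 1 and 1. Ecm2 held 1, 1 and 2, and its day 0 peak was the one in intron 1 of Aspn. As counted here, the median of each of these 4 lists was highest at day 9 and that of the 10 proteoglycan genes lowest there, but neither order held throughout. With lists of equal length, a setting applied to these 4 lists after the values were seen, the median was highest at day 9 in none of the 4 lists (1, 2 and 2 for the relatives, 2, 2 and 3 for the enzymes, 5, 5 and 6 for the collagens, 1, 2 and 2 for the SIBLING genes). The median proteoglycan gene had 1 peak on every day with a limit of 1e-20, 1, 1 and 1.50 with windows of 10 kb, and 1, 1 and 3 with the peak centre in the window or without Prelp.

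For the threshold of 20 kb, the member peaks nearest to the edge inside it lay 19.1 to 19.8 kb from Prelp and 18.7 kb from Dcn, and the nearest outside lay 22.0 kb from Dcn, 22.2 and 22.3 kb from Fmod and 22.3 kb from Bgn.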

How the data were processed

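Per the submitters' processing notes and the methods, reads were base-called with CASAVA 1.6 and mapped to mm9 with Bowtie 0.12.8, and peaks were called with MACS 1.4.1 on 2 pooled replicates per day. The authors deposited peaks below p-value 1e-10 with a score, −10 log10 of the p-value. From these lists, peaks were counted in windows around GENCODE M1 genes on NCBIM37 (the assembly of mm9), merged across days at an overlap of 1 bp, and searched for TGTGGT with Python 3.11.15, NumPy 2.4.6, SciPy 1.17.1 and pysam 0.24.0. Counting, merging and motif search were tested on simulated peaks. The members and lists were chosen with earlier results of these data known. Named by rule were the 10 members, other genes in their windows, the highest region per member and day, and regions at starts. Outside this rule, single genes of the comparison lists were named as examples, and Btg2 and Haus7 as nearest starts. Sequences at starts without TGTGGT in the 100 bases before were not printed. No test between days was made. Alternatives were stricter p-values, equal list lengths, other windows, centre overlap, other merging and other motif settings. The peak lists carry no read depth. The supplement of the study lists raw reads per day, and they were not used in any calculation.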

Additional observations from a re-analysis of the deposited data

How the results depend on the processing

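The replicates were pooled before peak calling, so no replicate could be left out. No paired analysis was possible because each day had 1 list and no test was made. Of 138 alternative values, 69 stayed within 1.5 times the reported one or within its interval. In what follows, 3 values stand for days 0, 9 and 28. Peaks in the windows numbered 9, 16 and 15 with a limit of 1e-20, 4, 7 and 7 with 1e-50, and 3, 6 and 3 with 1e-100. Merged regions fell to 25, 8 and 6 with these limits, those of day 9 alone to 7, 0 and 3, and those of all days to 3 with 1e-50 and 1e-100. Members with a peak numbered 3, 4 and 4 with 1e-50 and 3, 4 and 3 with 1e-100. The median over members fell to 1 at day 28 with 1e-20 and to 0 on every day with the stricter limits. The share with TGTGGT within 50 bp was 42.9% at day 9 with 1e-50, and 66.7%, 50% and 66.7% with 1e-100. With lists of equal length, days 9 and 28 had 8 and 12 peaks, 4 and 5 members with a peak, medians of 0 and 0.500, 19 regions, 1 of day 9 alone and 5 of all days, and a TGTGGT share of 37.5% at day 9. In the gene body alone, 6, 13 and 13 peaks, 17 regions (3 of day 9 alone, 4 of all days), 5 members with a peak at day 9 and medians of 0.500 and 1 at days 9 and 28 were left. Widening by 10 kb gave 7 regions of day 9 alone and a median of 1.50 at day 28. Widening by 50 kb gave 23, 54 and 52 peaks, 71 regions, 16 of all days, and medians of 4, 2 and 5. Searched over the whole peak, TGTGGT was found in 78.6%, 43.8% and 51.6%. Without Prelp, an alternative chosen after seeing the data, 17 peaks were left at day 9, 29 regions and 4 of day 9 alone. The members' median at day 9 was below that of both other days also with lists of equal length, the gene body alone and 50 kb, and not with the stricter limits, 10 kb, the peak centre in the window or without Prelp. The causes of these moves were not tested beyond the fewer peaks or genes that each setting leaves.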
